A study of Arabidopsis thaliana with 24 samples.

Results

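In Arabidopsis thaliana seedlings moved to mild warmth, 30 of the 22830 genes measured at both times were higher after 1 h and lower after 12 h than in seedlings kept cool. A gene belonged to the set when its mean log2(TPM + 1), with TPM the transcript level scaled to gene length and library total, was at least 0.6 higher at 27 °C than at 21 °C after 1 h and at least 0.6 lower after 12 h. Both conditions had to hold in wild type and in the mutant. The genes were thus chosen by their 4 temperature differences, which are given as descriptions with no test, while the differences between genotypes, which the rule did not use, were tested.

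The series holds RNA-seq of 24 libraries of whole seedlings, 3 in each of 8 groups. All seedlings grew for 7 days in short days at 21 °C and were then kept for a further 1 h or 12 h at 27 °C or at 21 °C. The mutant groups carry ino80-5, a single mutant allele of INO80, and are called ino80 here, and their wild type is the ecotype Col. The INO80 protein powers a complex that shifts nucleosomes and exchanges their histones, and the study addressed its role in how seedlings answer warmth. The labels do not say whether the 3 libraries of a group came from separate cultures, so p-values measure the spread between these libraries. The values of 1 h and 12 h stand in separate tables, each fitted alone, and the time of day and the hours at 27 °C cannot be told apart between them.

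Several processes represented in the set are well known in seedlings. Anthocyanins are red and purple flavonoid pigments made in the epidermis under high light, cold and sugar excess, and their late enzymes are switched on together by complexes of MYB, bHLH and WD40 proteins. Chaperones of the HSP90, chaperonin and GrpE families fold proteins in the cytosol, plastid and mitochondrion, and some are induced by heat while others follow plastid development and light. Gibberellin made by GA 3-oxidases drives cell elongation, and cold-regulated genes such as KIN1 protect cells against freezing and drought.

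Of the 22830 genes, 495 were at least 0.6 higher at 27 °C after 1 h in both genotypes and 1260 at least 0.6 lower after 12 h in both. The 30 genes that did both made up 6.06% of the 495, beside 1260 lower after 12 h among all 22830 genes. They made up 2.38% of the 1260, beside 495 higher after 1 h among all 22830. Whether this overlap differs from that of unrelated changes was not tested, and nothing is read from its size. Another 76 genes were at least 0.6 lower at both times in both genotypes. A further 104 of the 495 were also at least 0.6 higher after 12 h, and 361 passed neither threshold after 12 h. The opposite course, lower after 1 h and higher after 12 h, was met by 50 genes. In Col alone 88 genes met the rule, and in ino80 alone 53. The members nearest to the threshold were MLP423, AT3G53650 and AT5G45950, whose smallest of the 4 changes was 0.63, 0.61 and 0.61 in size. The genes just outside were LACS3, a long-chain acyl-CoA synthetase, at 0.60, the HSP70-family gene AT3G09440 at 0.58 and the cytosolic HSP90 gene HSP81-3 at 0.58.

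All 30 genes passed the filter on low values (at least 3 of the 12 libraries at 1 TPM or more) in both tables. After 1 h their median difference between 27 °C and 21 °C was 0.92 in ino80 and 1.09 in Col on the log2(TPM + 1) scale, where the median of all tested genes was 0.001 in ino80 and -0.005 in Col. After 12 h it was -1.098 in ino80, where the median of all tested genes was 0.15, and -1.25 in Col, where that median was 0.13. The 12 h difference was larger in size than the 1 h difference for 22 genes in ino80 and for 23 in Col. At 1 h limma called 30 of 30 genes in ino80, where 32.0% of all tested genes were called in either direction, and 30 of 30 in Col, where 34.2% were. At 12 h it called 30 lower in ino80 (19.3% of all tested genes) and 29 lower in Col (21.8%). These counts follow from the rule and nothing is read from them.

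**Figure D1:**
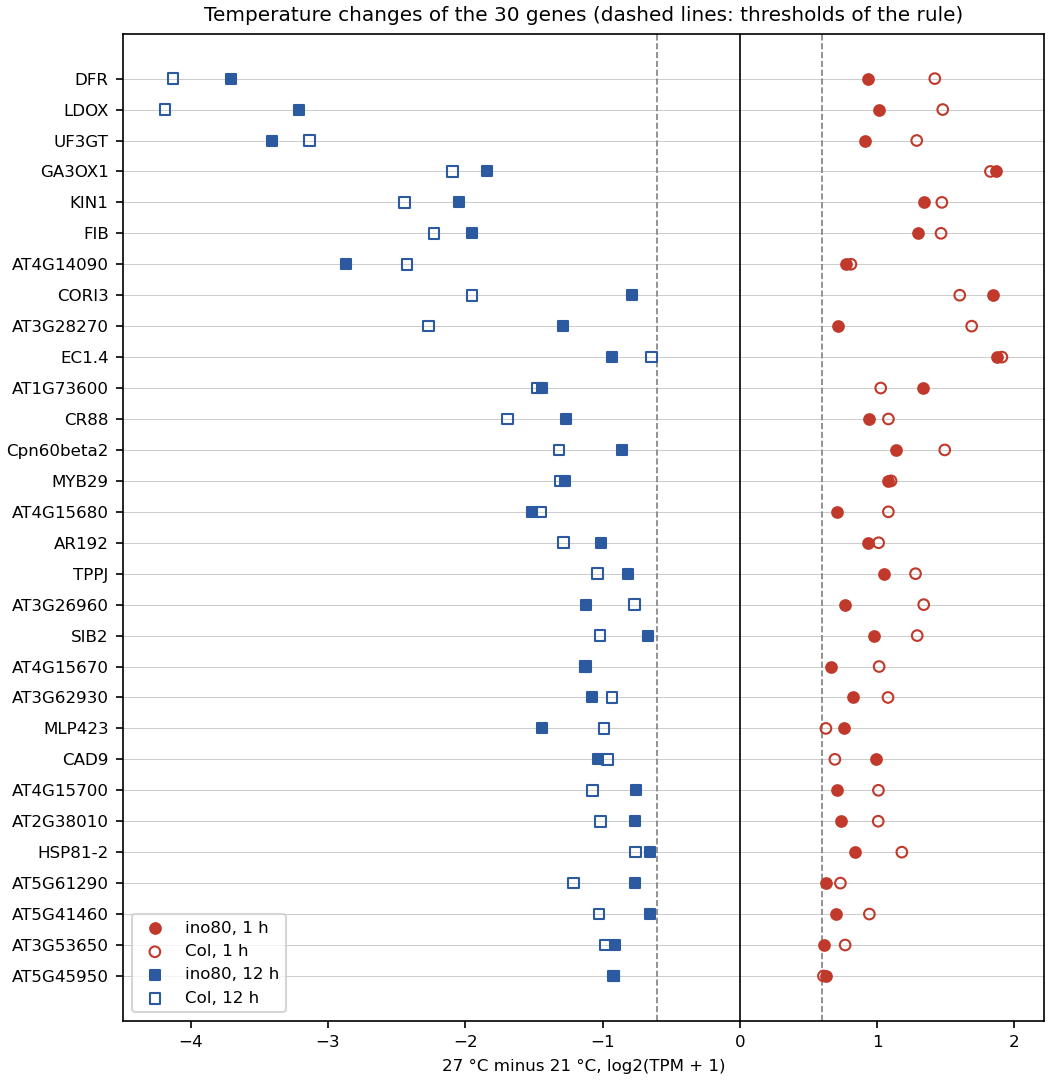
Difference between 27 °C and 21 °C in log2(TPM + 1) for each of the 30 genes, ordered from the largest mean size at the top, in ino80 (filled) and Col (open) after 1 h (circles) and 12 h (squares). DFR, LDOX and UF3GT have the largest falls after 12 h, at -3.71, -3.21 and -3.40 in ino80, and GA3OX1, EC1.4 and CORI3 lie among the highest after 1 h.

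Some facts of the whole series bear on every result. INO80 itself was lower in ino80 in all 4 comparisons, with 10.9 to 11.6 TPM in ino80 against 14.4 to 16.7 TPM in Col at 27 °C after 1 h, so transcripts of the gene remained in the mutant. Each library held an estimated 13400000 to 25500000 fragments, rough values read from the steps between low TPM, and replicates correlated at r = 0.990 to 0.996 across genes, which are not independent replicates. The 6 green shoot markers, among them RBCS1A and CAB3, summed to 22879 to 48952 TPM, in keeping with the label of seedling, and all 4 floral organ markers together stayed under 4 TPM. After 12 h the green shoot sum was 22879 to 25449 TPM in ino80 at 27 °C, against 38396 to 41679 TPM in ino80 at 21 °C, and 27185 to 31024 TPM in Col at 27 °C, against 41452 to 45631 TPM in Col at 21 °C. Summed root markers were higher in ino80, at 3498 to 4114 TPM after 12 h against 1873 to 2646 TPM in Col, and so were 6 seed maturation markers, at 71.2 to 94.1 TPM after 1 h against 16.6 to 30.9 TPM in Col. After 12 h the seed maturation sum was 35.9 to 54.6 TPM in ino80 at 27 °C, against 22.2 to 38.8 TPM in Col at 27 °C, which overlap, and 26.2 to 36.1 TPM in ino80 at 21 °C, against 5.78 to 12.997 TPM in Col at 21 °C. What these differences contribute to the values below was not tested, and in whole seedlings fewer cells of a type and less RNA per cell cannot be told apart.

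Late anthocyanin synthesis gave 4 of the 30 genes, and 3 of them had the largest 12 h falls of the set. DFR (dihydroflavonol 4-reductase) and LDOX (leucoanthocyanidin dioxygenase) make the coloured anthocyanidins, UF3GT adds a xylose to anthocyanin 3-O-glucosides, and the product of AT4G14090 is annotated as an anthocyanidin 5-O-glucosyltransferase. In each of them the libraries at 27 °C lay above those at 21 °C after 1 h and below them after 12 h, in both genotypes. The 250 bases before the start of the 3 with the largest falls are shown because these genes moved together and are among the members with most matches to the motifs searched. They were read 5′ to 3′ on the gene's strand from RefSeq TAIR10.1, DFR and UF3GT on the minus strand of chromosome 5 and LDOX on the minus strand of chromosome 4. Capitals mark the G-box (CACGTG) with the overlapping ABRE core (ACGTGG) in DFR and UF3GT, the W-box (TTGACC) in LDOX and site II (TGGGCC) in LDOX and UF3GT, each on either strand.
DFR: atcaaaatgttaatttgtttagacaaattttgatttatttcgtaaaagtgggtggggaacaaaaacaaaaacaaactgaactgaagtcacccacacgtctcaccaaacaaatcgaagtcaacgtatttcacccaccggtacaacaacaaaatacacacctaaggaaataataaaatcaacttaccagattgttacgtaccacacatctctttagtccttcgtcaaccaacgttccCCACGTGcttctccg
LDOX: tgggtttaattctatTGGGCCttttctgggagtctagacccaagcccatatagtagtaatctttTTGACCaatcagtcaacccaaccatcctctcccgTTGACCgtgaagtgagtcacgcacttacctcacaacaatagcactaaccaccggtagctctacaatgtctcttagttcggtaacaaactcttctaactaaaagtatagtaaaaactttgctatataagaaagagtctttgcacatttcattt
UF3GT: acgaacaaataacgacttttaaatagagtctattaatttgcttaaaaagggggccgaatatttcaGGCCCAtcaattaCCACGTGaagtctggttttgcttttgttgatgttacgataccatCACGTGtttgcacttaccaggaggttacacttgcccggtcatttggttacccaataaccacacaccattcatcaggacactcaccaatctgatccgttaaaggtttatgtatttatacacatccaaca
DFR had 1 G-box in this stretch, with its first base 14 bases before the start, and UF3GT had 2, at 171 and 128 bases, while LDOX had none.

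After 1 h, DFR had 80.3, 72.2 and 88.5 TPM in ino80 at 27 °C, against 41.9, 40.2 and 42.0 TPM in ino80 at 21 °C. In Col it had 44.1, 43.4 and 40.1 TPM at 27 °C, against 16.5, 14.7 and 14.6 TPM at 21 °C. The libraries at 27 °C were all above those at 21 °C within a genotype, and ino80 at 21 °C overlapped Col at 27 °C. After 12 h the order was turned round, with 5.91, 12.2 and 4.40 TPM in ino80 at 27 °C, against 146, 96.7 and 75.5 TPM in ino80 at 21 °C. The Col libraries had 1.104, 0.787 and 0.826 TPM at 27 °C, against 23.4, 41.8 and 34.1 TPM at 21 °C. Groups did not overlap, and Col at 27 °C was by far the lowest. On the log2 scale the difference between 27 °C and 21 °C was 0.94 ± 0.07 (SE, n = 3 per group) in ino80 and 1.42 ± 0.07 in Col after 1 h, and -3.71 ± 0.29 in ino80 and -4.13 ± 0.29 in Col after 12 h.

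LDOX followed the same course. At 1 h it had 91.5, 79.0 and 89.3 TPM in ino80 at 27 °C, against 42.3, 42.3 and 42.5 TPM in ino80 at 21 °C. Col had 60.4, 56.5 and 53.2 TPM at 27 °C, against 21.8, 19.3 and 18.16 TPM at 21 °C. Every library of ino80 was above every library of Col at the same temperature. At 12 h it had 6.95, 8.02 and 5.84 TPM in ino80 at 27 °C, against 106, 65.6 and 54.1 TPM in ino80 at 21 °C. Col had 0.988, 1.98 and 0.332 TPM at 27 °C, against 29.2, 45.9 and 32.6 TPM at 21 °C. All libraries at 27 °C lay below all those at 21 °C of the same genotype, and the 3 Col libraries at 27 °C differed among themselves by more than those of any other group in relative terms.

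UF3GT was the lowest of the 4 in TPM. It had 39.4, 35.7 and 35.4 TPM in ino80 at 27 °C after 1 h, against 19.6, 19.5 and 18.01 TPM in ino80 at 21 °C. The Col values were 19.4, 19.2 and 17.2 TPM at 27 °C, against 6.76, 7.43 and 6.86 TPM at 21 °C. As for DFR, ino80 at 21 °C overlapped Col at 27 °C. At 12 h it had 2.43, 2.90 and 2.08 TPM in ino80 at 27 °C, against 46.9, 33.3 and 28.9 TPM in ino80 at 21 °C. The Col values were 0.478, 0.640 and 0.149 TPM at 27 °C, against 6.27, 17.7 and 12.9 TPM at 21 °C. No groups overlapped, and Col at 27 °C stayed under 1 TPM, where the added 1 understates the fold.

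AT4G14090 had the smallest 1 h difference of the 4. Its libraries had 75.8, 66.0 and 70.2 TPM in ino80 at 27 °C after 1 h, against 43.8, 37.3 and 41.7 TPM in ino80 at 21 °C. In Col they had 37.5, 37.1 and 31.1 TPM at 27 °C, against 23.62, 15.8 and 20.1 TPM at 21 °C. Within each genotype the temperatures did not overlap. After 12 h its level was 4.94, 9.16 and 3.87 TPM in ino80 at 27 °C, against 62.5, 40.5 and 42.4 TPM in ino80 at 21 °C. Col had 1.92, 3.64 and 2.92 TPM at 27 °C, against 14.6, 23.64 and 20.2 TPM at 21 °C. All libraries at 27 °C were again below those at 21 °C of their genotype. The gene overlaps AT4G14100 on the opposite strand by 230 bp and the strand setting of the counting is not given in the sources used here. AT4G14100 had 22.3 to 35.9 TPM after 12 h and changed by 0.41 in ino80 and 0.38 in Col. What its reads add to the values of AT4G14090 was not tested.

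**Figure D2:**
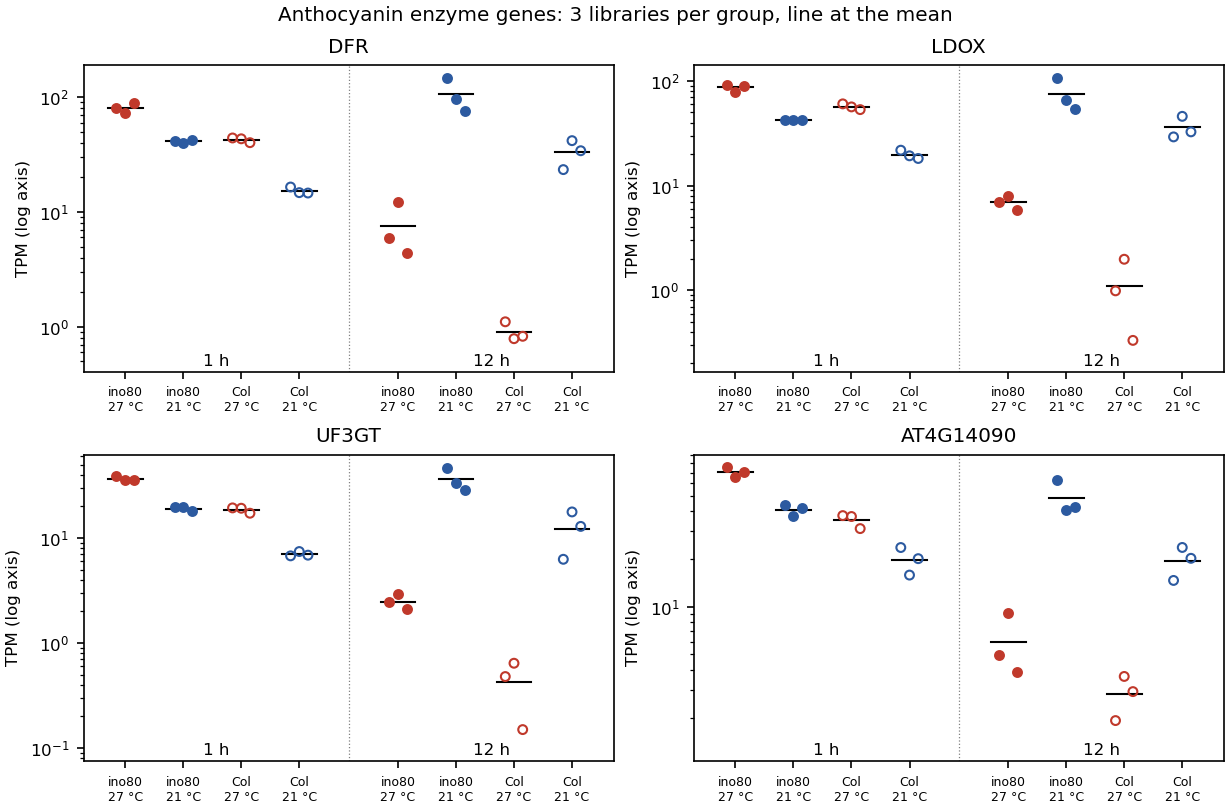
TPM on a log axis of DFR, LDOX, UF3GT and AT4G14090 in each of 3 libraries per group (points) with the group mean (line), after 1 h on the left and 12 h on the right of each panel. At 1 h both genotypes are higher at 27 °C, and at 12 h both are lower, with Col at 27 °C lowest at a mean of 0.906 TPM for DFR and 0.423 TPM for UF3GT.

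All 4 anthocyanin genes were higher in ino80 than in Col at both temperatures and both times. DFR was higher in ino80 by 1.38 ± 0.07 (log2, SE) at 21 °C after 1 h (limma, adjusted p = 1.87e-09) and by 0.90 ± 0.07 at 27 °C after 1 h (adjusted p = 1.96e-07). After 12 h it was higher by 1.64 ± 0.29 at 21 °C (limma, adjusted p = 0.000805) and by 2.06 ± 0.29 at 27 °C (adjusted p = 0.000110). LDOX was higher by 1.07 and 0.60 at 21 °C and 27 °C after 1 h, and by 1.01 ± 0.27 and 1.99 ± 0.27 after 12 h (limma, adjusted p = 0.0116 and 7.71e-05). UF3GT was higher by 1.32 and 0.95 after 1 h and by 1.57 and 1.296 after 12 h, and AT4G14090 by 1.02, 0.99, 1.27 and 0.82 in the same order. In these 16 comparisons the 3 ino80 libraries lay above the 3 Col libraries without overlap. For AT4G14090 at 27 °C after 12 h the gap was narrow, from 3.64 TPM in Col to 3.87 TPM in ino80. The share of all genes without overlap was not counted, so nothing is read from the number of separate comparisons. The call of LDOX at 21 °C after 12 h was lost without Col replicate 1 (limma, adjusted p = 0.0513) or without ino80 replicate 1 (adjusted p = 0.0571). That of AT4G14090 at 27 °C after 12 h was lost without Col replicate 1 (limma, adjusted p = 0.109) or without ino80 replicate 2, when the difference was 0.52 (adjusted p = 0.111). With a pseudocount of 5 the differences at 27 °C after 12 h were 0.97 for LDOX and 1.03 for DFR, and the calls of UF3GT (0.46, limma adjusted p = 0.0899) and AT4G14090 (0.47, adjusted p = 0.0677) were lost.

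Of the 29 listed flavonoid and anthocyanin genes tested at both times, 20 fell after 12 h in both genotypes, 8 rose after 1 h in both and 6 did both. Without the 4 members these counts were 16, 4 and 2 of 25, where 17.1% of all 18827 genes tested at both times fell after 12 h in both genotypes, 9.79% rose after 1 h in both and 1.81% did both. The 6 genes were the 4 members with TT4, the chalcone synthase that opens the pathway, and GSTF12, a glutathione transferase needed to carry anthocyanins to the vacuole. TT4 rose after 1 h by 0.34 ± 0.04 in ino80 (limma, adjusted p = 8.69e-06) and 0.46 ± 0.04 in Col (adjusted p = 2.82e-07), under the threshold of the rule, and fell by 3.003 in ino80 and fell by 3.04 in Col after 12 h. GSTF12 rose by 0.33 ± 0.07 in ino80 and 0.41 ± 0.07 in Col and then fell by 3.98 in ino80 and fell by 4.60 in Col after 12 h. F3H, the flavanone 3-hydroxylase of the early pathway, instead fell by 0.53 in ino80 and fell by 0.53 in Col after 1 h. The median change of the list was -1.76 in ino80 and -1.76 in Col after 12 h, beside 0.15 and 0.13 over all tested genes, and 0.03 in ino80 and 0.09 in Col after 1 h. The list holds 4 genes that the rule chose for this course, so it is no independent support of it. In ino80 against Col after 1 h, 15 of 31 tested genes of the list were higher and 8 lower at 21 °C, and 14 were higher and 9 lower at 27 °C, where 15.4% and 20.5% of all tested genes were called at 21 °C and 17.1% and 20.4% at 27 °C. After 12 h, 15 of 29 were higher and 1 lower at 21 °C, beside 16.7% and 12.1% of all tested genes, and 12 were higher and 2 lower at 27 °C, beside 18.7% and 11.5%.

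Chaperones gave another 4 genes, a plastid HSP90 (CR88), a plastid chaperonin subunit (Cpn60beta2), a GrpE-type co-chaperone (AR192) and a cytosolic HSP90 (HSP81-2). Their levels ranged widely, and HSP81-2 had the highest group mean of all members at 1 h, in Col at 27 °C. The promoters of the plastid pair are shown because they hold the most matches among the chaperones to the motifs searched. Both were read from RefSeq TAIR10.1, CR88 on the plus strand of chromosome 2 and Cpn60beta2 on the plus strand of chromosome 3. Capitals mark site II (TGGGCC) on either strand, and in Cpn60beta2 also the CRT/DRE core (CCGAC) and the heat shock element (GAANNTTC, where N is any base).
CR88: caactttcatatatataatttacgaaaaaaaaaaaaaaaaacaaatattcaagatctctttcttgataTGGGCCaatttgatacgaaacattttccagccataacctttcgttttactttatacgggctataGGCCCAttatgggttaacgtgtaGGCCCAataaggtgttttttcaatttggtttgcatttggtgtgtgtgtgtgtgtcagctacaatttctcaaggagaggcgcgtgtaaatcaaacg
Cpn60beta2: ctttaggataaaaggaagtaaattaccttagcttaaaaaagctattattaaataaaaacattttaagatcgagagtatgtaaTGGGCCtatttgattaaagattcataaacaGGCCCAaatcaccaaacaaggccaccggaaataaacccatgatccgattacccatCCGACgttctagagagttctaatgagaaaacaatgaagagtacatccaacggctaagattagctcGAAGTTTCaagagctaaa
CR88 held 3 copies of site II, with first bases 182, 118 and 95 bases before the start, and Cpn60beta2 held 2, at 168 and 138 bases. The heat shock element of Cpn60beta2 began 18 bases before the start, and CR88 held none in this stretch.

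CR88 had 186, 201 and 200.4 TPM in ino80 at 27 °C after 1 h, against 97.9, 109 and 98.8 TPM in ino80 at 21 °C. The Col libraries held 245, 261 and 242 TPM at 27 °C, against 106, 138 and 110.0 TPM at 21 °C. The libraries at 27 °C were clearly above those at 21 °C, and highest in Col. The 12 h libraries held 112, 103 and 105 TPM in ino80 at 27 °C, against 307, 217 and 257 TPM in ino80 at 21 °C. Col had 102, 109 and 98.5 TPM at 27 °C, against 311, 327 and 374 TPM at 21 °C. The genotypes overlapped at 27 °C and lay below every library at 21 °C, whose level was itself above that at 21 °C after 1 h. At 27 °C after 1 h CR88 was lower in ino80 (-0.35 ± 0.08, limma adjusted p = 0.00273), and at 21 °C after 12 h it was lower too (-0.38 ± 0.10, adjusted p = 0.0116). The second call was lost without Col replicate 3 (limma, adjusted p = 0.0615) or ino80 replicate 2 (adjusted p = 0.0558).

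Cpn60beta2 had 147, 143 and 148 TPM in ino80 at 27 °C after 1 h, against 64.1, 70.0 and 63.5 TPM in ino80 at 21 °C. In Col the values were 201, 230.1 and 207 TPM at 27 °C, against 69.4, 84.2 and 71.6 TPM at 21 °C. Col at 27 °C was above all other 1 h libraries. After 12 h the values were 88.8, 82.0 and 79.6 TPM in ino80 at 27 °C, against 192, 124 and 148 TPM in ino80 at 21 °C. Col had 71.3, 76.8 and 71.5 TPM at 27 °C, against 165, 180.2 and 209 TPM at 21 °C. The temperatures did not overlap in either genotype. The gene was lower in ino80 at 27 °C after 1 h (-0.54 ± 0.07, limma adjusted p = 2.20e-05), with all 3 ino80 libraries below those of Col. It overlaps AT3G13480 by 553 bp on the opposite strand, a gene of 6.63 to 19.2 TPM that changed by -0.10 in ino80 and -0.30 in Col after 1 h. What reads of AT3G13480 add to the values of Cpn60beta2 was not tested.

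AR192, annotated as a GrpE-type co-chaperone that helps HSP70 release its nucleotide, had 29.0, 27.4 and 31.5 TPM in ino80 at 27 °C after 1 h, against 16.9, 12.9 and 15.1 TPM in ino80 at 21 °C. Col seedlings had 34.8, 34.4 and 32.2 TPM at 27 °C, against 16.2, 18.5 and 14.3 TPM at 21 °C. The ino80 libraries lay below those of Col at 27 °C and overlapped them at 21 °C, and neither genotype difference was called. By 12 h it had 13.3, 15.5 and 12.1 TPM in ino80 at 27 °C, against 32.3, 24.4 and 29.0 TPM in ino80 at 21 °C. Col had 11.3, 14.0 and 11.9 TPM at 27 °C, against 30.8, 29.5 and 34.5 TPM at 21 °C. The temperatures were separate and the genotypes overlapped.

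HSP81-2 had the highest 1 h group mean of the set in Col at 27 °C, but not in ino80. After 1 h it had 877, 870.4 and 866 TPM in ino80 at 27 °C, against 476, 495 and 486 TPM in ino80 at 21 °C. Col had 1586, 1654 and 1745 TPM at 27 °C, against 699, 789 and 712 TPM at 21 °C. All ino80 libraries lay below the Col libraries of the same temperature. Its 12 h values were 143, 144 and 143 TPM in ino80 at 27 °C, against 236, 214 and 228 TPM in ino80 at 21 °C. Col had 128, 152 and 134 TPM at 27 °C, against 245, 214 and 244 TPM at 21 °C. Temperatures did not overlap, and the genotypes did. HSP81-2 was lower in ino80 after 1 h, with log2 differences of -0.59 ± 0.05 at 21 °C (limma, adjusted p = 2.66e-07) and -0.93 ± 0.05 at 27 °C (adjusted p = 2.67e-09), and not called after 12 h (-0.05 and 0.06). Its coding sequence is 91.9% identical to that of HSP81-3 and 90.6% to that of Hsp81.4, so reads could be split among them. HSP81-3 moved alike, by 0.70 in ino80 and 0.86 in Col after 1 h and by -0.58 in ino80 and -0.79 in Col after 12 h, and missed the rule in ino80 after 12 h. Hsp81.4 changed by 0.38 in ino80 and 0.39 in Col after 1 h and by -0.52 in ino80 and -0.53 in Col after 12 h.

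**Figure D3:**
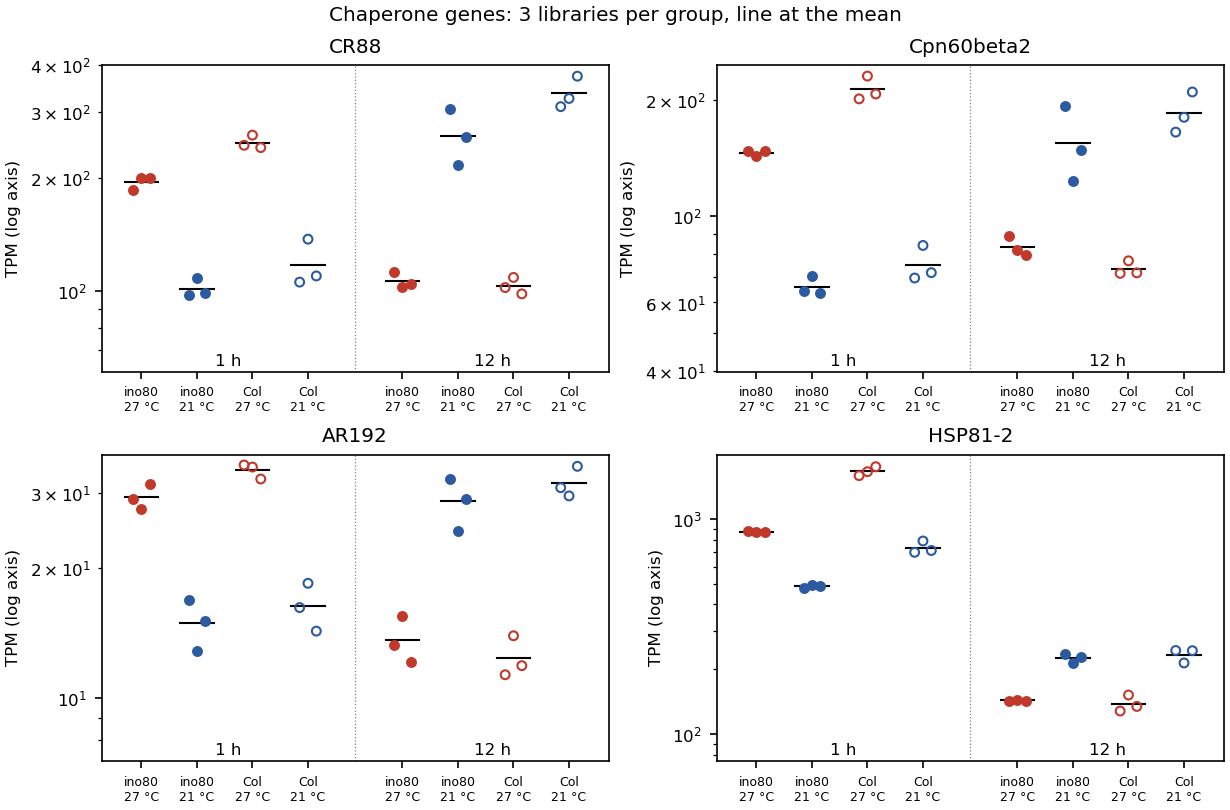
TPM on a log axis of CR88, Cpn60beta2, AR192 and HSP81-2 in each of 3 libraries per group (points) with the group mean (line), after 1 h on the left and 12 h on the right of each panel. At 1 h the red points of 27 °C lie above the blue points of 21 °C and at 12 h below them, and HSP81-2 at 1 h averaged 871 TPM in ino80 and 1662 TPM in Col at 27 °C.

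The list of heat shock proteins and factors contains no member of the set and leaves out HSP81-2, HSP81-3 and Hsp81.4, and of its 27 genes tested at both times 19 rose after 1 h in both genotypes and 1 of them fell after 12 h in both. That gene was HSC70-1, a constitutive cytosolic HSP70, which rose by 0.14 ± 0.05 in ino80 and 0.36 ± 0.05 in Col after 1 h and fell by 0.61 in ino80 and fell by 0.64 in Col after 12 h. Over all 18827 genes tested at both times, 9.79% rose after 1 h in both genotypes and 1.81% also fell after 12 h in both. Of the 27, 20 rose after 12 h in ino80, where 38.1% of all tested genes were called higher, and 16 in Col, where 36.8% were. In ino80 against Col after 1 h, 2 of 29 tested genes of this list were higher and 16 lower at 21 °C. At 27 °C 3 were higher and 14 lower, and HSP81-2 was also lower in ino80. Over all tested genes 15.4% were called higher and 20.5% lower at 21 °C, and 17.1% and 20.4% at 27 °C. After 12 h, 9 of 27 were higher and 1 lower at 21 °C, and 12 were higher and 0 lower at 27 °C by limma. Over all tested genes these shares were 16.7% and 12.1% at 21 °C and 18.7% and 11.5% at 27 °C.

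The next lists each held 0 or 1 gene with this course. Over all 18827 genes tested at both times, 9.79% rose after 1 h in both genotypes, 17.1% fell after 12 h in both and 1.81% did both. Nothing is read from such low counts in lists of this size. Among 28 genes of the photosystems and chlorophyll synthesis, 2 rose after 1 h in both genotypes, 12 fell after 12 h in both and 1, the protochlorophyllide oxidoreductase POR C, did both. Among 14 genes of nitrate, sulfate and sugar starvation, 4 rose after 1 h, 2 fell after 12 h and 1, the nitrite reductase NIR1, did both. POR C rose by 0.40 ± 0.04 in ino80 and 0.27 ± 0.04 in Col after 1 h and fell by 0.92 in ino80 and fell by 1.04 in Col after 12 h. NIR1 rose by 0.55 ± 0.06 in ino80 and 1.03 ± 0.06 in Col and fell by 1.07 in ino80 and fell by 0.80 in Col. No gene did both among 30 of thermomorphogenesis and shade growth (7 rose after 1 h in both genotypes and 3 fell after 12 h in both), 26 of light signalling (0 and 7), 20 of the clock (1 and 1) and 15 of auxin response (3 and 0). The same held for 9 genes of salicylic acid defence (0 and 4) and 8 of ribosome biogenesis (0 and 7).

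Hormone, cold and plastid lipid genes with large changes in both directions were GA3OX1, KIN1 and FIB. GA3OX1, a gibberellin 3-oxidase for the last step to bioactive gibberellin, had 25.04, 23.4 and 26.2 TPM in ino80 at 27 °C after 1 h, against 5.44, 6.63 and 6.28 TPM in ino80 at 21 °C. Its Col values were 15.73, 15.5 and 12.9 TPM at 27 °C, against 4.09, 3.27 and 2.96 TPM at 21 °C. All 4 groups were separate, ino80 above Col at each temperature. At 12 h the level was 7.57, 8.92 and 9.26 TPM in ino80 at 27 °C, against 33.2, 33.4 and 33.0 TPM in ino80 at 21 °C. Col had 4.61, 5.17 and 2.52 TPM at 27 °C, against 21.4, 18.8 and 20.2 TPM at 21 °C. The 4 groups were separate again, with the 21 °C groups now the high ones. The 12 h level at 21 °C was above the 1 h level at 27 °C in both genotypes, although the tables were scaled apart. GA3OX1 was higher in ino80 in all 4 comparisons, by 0.68 and 0.72 ± 0.11 at 21 °C and 27 °C after 1 h and by 0.70 and 0.95 ± 0.16 after 12 h (limma, adjusted p between 7.17e-05 and 0.00458). It was the only one of 19 listed gibberellin and brassinosteroid genes, tested at both times, that rose after 1 h and fell after 12 h in both genotypes. The list counts 2 that rose after 1 h and 1 that fell after 12 h in both. Over all genes tested at both times, 9.79% rose, 17.1% fell and 1.81% did both. The rule chose GA3OX1 for this course, so the list is no independent support of it. GA2OX2, which inactivates gibberellin, fell by 2.83 in ino80 and fell by 2.78 in Col after 1 h.

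KIN1, a small protein induced by cold and abscisic acid, had 168, 177 and 163 TPM in ino80 at 27 °C after 1 h, against 78.5, 45.5 and 81.8 TPM in ino80 at 21 °C. The level in Col was 111, 85.8 and 85.7 TPM at 27 °C, against 34.0, 30.9 and 34.3 TPM at 21 °C. The temperatures did not overlap and ino80 was higher at each, by 0.98 ± 0.16 at 21 °C (limma, adjusted p = 0.000180) and 0.85 ± 0.16 at 27 °C (adjusted p = 0.000604). The values after 12 h were 3.51, 37.5 and 3.90 TPM in ino80 at 27 °C, against 47.4, 52.2 and 22.1 TPM in ino80 at 21 °C. Col had 1.52, 2.43 and 2.67 TPM at 27 °C, against 14.7, 16.5 and 17.7 TPM at 21 °C. In ino80 the temperatures overlapped because of replicate 2 at 27 °C, and the difference was -2.04 with it and -3.05 without it. Genotype differences after 12 h were 1.18 ± 0.58 at 21 °C and 1.58 ± 0.58 at 27 °C and were not called (limma, adjusted p = 0.149 and 0.0541). KIN2, whose coding sequence is 95.0% identical, changed by 0.70 in ino80 and 0.66 in Col after 1 h and by -0.56 and -0.35 after 12 h, and reads could be split between the 2 genes.

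In the cold and dehydration list of 14 genes tested at both times, 9 rose after 1 h in both genotypes, 3 fell after 12 h in both and 2, KIN1 and COR15A, did both. Over all genes tested at both times these shares were 9.79%, 17.1% and 1.81%. The rule chose KIN1 for this course, so the list is no independent support of it and nothing is read from its counts. COR15A, a chloroplast-targeted cold protein, rose by 0.39 ± 0.14 in ino80 (limma, adjusted p = 0.0455) and 0.87 ± 0.14 in Col and fell by 5.17 in ino80 and fell by 5.28 in Col, and it missed the rule through its 1 h value in ino80.

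FIB encodes fibrillin, a lipid-binding protein of plastoglobules. Its promoter, on the plus strand of chromosome 4 in RefSeq TAIR10.1, is shown because it alone among the 30 held an evening element (AAAATATCT). Capitals mark that element on the reverse strand, 222 bases before the start, and 2 heat shock elements (GAANNTTC), at 203 and 133 bases.
FIB: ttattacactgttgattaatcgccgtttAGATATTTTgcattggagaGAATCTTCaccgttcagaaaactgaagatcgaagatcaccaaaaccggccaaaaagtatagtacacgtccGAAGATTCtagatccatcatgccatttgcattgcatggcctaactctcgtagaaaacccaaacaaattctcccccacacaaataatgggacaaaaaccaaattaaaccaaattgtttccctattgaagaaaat
FIB had 1175, 1152 and 1147 TPM in ino80 at 27 °C after 1 h, against 449, 504 and 459 TPM in ino80 at 21 °C. In Col it had 1252, 1229.7 and 1301 TPM at 27 °C, against 415, 494 and 463 TPM at 21 °C. The genotypes overlapped at 21 °C, and at 27 °C ino80 lay below Col. At 12 h it had 28.4, 33.3 and 26.5 TPM in ino80 at 27 °C, against 137, 101 and 114 TPM in ino80 at 21 °C. Col had 19.0, 19.4 and 15.5 TPM at 27 °C, against 70.6, 104 and 90.9 TPM at 21 °C. Every 12 h library was below every 1 h library, and at 27 °C the 3 ino80 libraries lay above those of Col. FIB was higher in ino80 at 27 °C after 12 h (0.68 ± 0.14, limma adjusted p = 0.00204). The call at 21 °C after 12 h (0.41 ± 0.14, adjusted p = 0.0416) was lost without Col replicate 1, when it was 0.25 (limma, adjusted p = 0.193), without ino80 replicate 1 (adjusted p = 0.168), without Col replicate 3 (adjusted p = 0.0723) and without ino80 replicate 3 (adjusted p = 0.0827). With all libraries kept, this call was lost with no filter on low values or with median-of-ratios scaling (limma, adjusted p = 0.0647 and 0.0810).

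AT3G28270, annotated as a putative transmembrane protein with DUF677, showed the largest genotype difference of the set at 21 °C after 1 h. It had 221, 211 and 226 TPM in ino80 at 27 °C after 1 h, against 137, 143 and 121 TPM in ino80 at 21 °C. The Col libraries held 118, 116 and 114 TPM at 27 °C, against 34.7, 36.3 and 34.7 TPM at 21 °C. The level of ino80 at 21 °C was above that of Col at 27 °C. The 12 h libraries held 20.9, 25.7 and 15.9 TPM in ino80 at 27 °C, against 58.1, 48.1 and 48.4 TPM in ino80 at 21 °C. Col had 7.42, 6.77 and 3.04 TPM at 27 °C, against 23.58, 36.3 and 31.2 TPM at 21 °C. The temperatures were separate in each genotype, ino80 lay above Col at each temperature, and ino80 at 27 °C overlapped Col at 21 °C. The gene was higher in ino80 by 1.89 ± 0.06 at 21 °C after 1 h (limma, adjusted p = 6.55e-12), 0.92 ± 0.06 at 27 °C after 1 h (adjusted p = 1.05e-08) and 1.74 ± 0.24 at 27 °C after 12 h (adjusted p = 8.03e-05). The call at 21 °C after 12 h (0.76 ± 0.24, adjusted p = 0.0269) was lost without Col replicate 1 or 3 and without any 1 of the 3 ino80 libraries (limma, adjusted p = 0.0505 to 0.114).

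**Figure D4:**
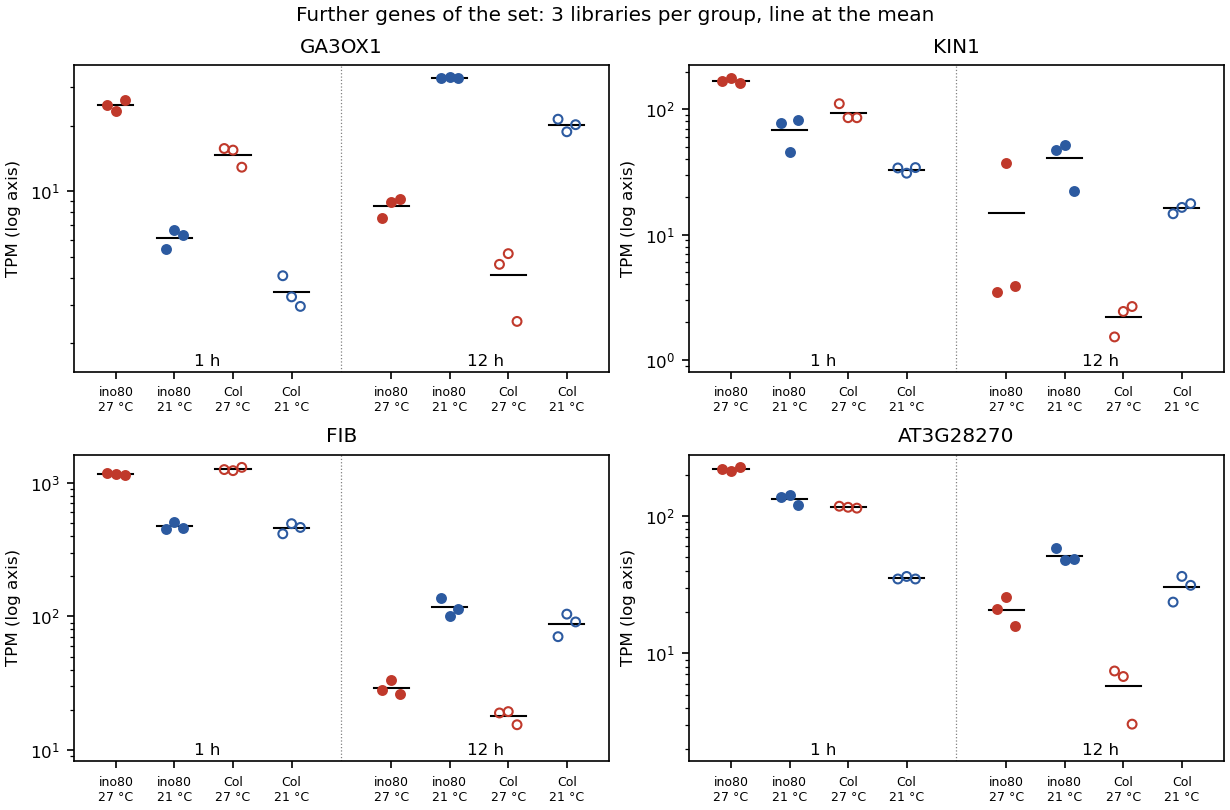
TPM on a log axis of GA3OX1, KIN1, FIB and AT3G28270 in each of 3 libraries per group (points) with the group mean (line), after 1 h on the left and 12 h on the right of each panel. Each gene is higher at 27 °C after 1 h and lower after 12 h, except that 1 ino80 library at 27 °C after 12 h reaches 37.5 TPM of KIN1, within the range of ino80 at 21 °C.

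CORI3, a cystine lyase induced by jasmonate and wounding, had 27.6, 28.6 and 27.3 TPM in ino80 at 27 °C after 1 h, against 6.73, 7.75 and 6.63 TPM in ino80 at 21 °C. Col seedlings had 9.14, 8.41 and 9.76 TPM at 27 °C, against 2.23, 2.39 and 2.34 TPM at 21 °C. All ino80 libraries were above the Col libraries of the same temperature. By 12 h it had 9.71, 14.6 and 9.35 TPM in ino80 at 27 °C, against 23.4, 20.98 and 15.6 TPM in ino80 at 21 °C. Col had 6.49, 5.68 and 3.39 TPM at 27 °C, against 19.9, 25.03 and 22.3 TPM at 21 °C. At 21 °C the genotypes now overlapped, and at 27 °C ino80 stayed above Col. CORI3 was higher in ino80 by 1.27 ± 0.08 at 21 °C after 1 h (limma, adjusted p = 1.72e-08), 1.52 ± 0.08 at 27 °C after 1 h (adjusted p = 3.30e-09) and 0.99 ± 0.20 at 27 °C after 12 h (adjusted p = 0.00189). In the jasmonate list, 3 of 10 genes were up after 1 h and 0 down after 12 h in both genotypes by limma. Over all genes tested at both times these shares were 9.79% and 17.1%, and nothing is read from so short a list.

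MYB29, a regulator of aliphatic glucosinolate synthesis, had 13.6, 12.4 and 13.5 TPM in ino80 at 27 °C after 1 h, against 5.21, 6.88 and 5.17 TPM in ino80 at 21 °C. Its Col values were 17.83, 21.6 and 18.6 TPM at 27 °C, against 7.98, 8.92 and 8.48 TPM at 21 °C. It was lower in ino80 at both temperatures, with log2 differences of -0.49 ± 0.10 at 21 °C (limma, adjusted p = 0.00124) and -0.52 ± 0.10 at 27 °C (adjusted p = 0.000815). After 12 h it averaged 2.02 ± 0.303 TPM (SD, n = 3) in ino80 at 27 °C and 6.36 ± 1.36 TPM in ino80 at 21 °C. In Col it averaged 2.50 ± 0.601 TPM at 27 °C and 7.57 ± 0.605 TPM at 21 °C, and the genotypes were not called apart.

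A group of small genes annotated as thioredoxin-superfamily proteins was AT4G15670, AT4G15680, AT4G15700 and AT3G62930. The first 3 lie close together on the plus strand of chromosome 4, with AT4G15670 and AT4G15680 adjacent and 1 gene, AT4G15690, between AT4G15680 and AT4G15700. Coding sequences of these 3 and of their neighbours AT4G15660 and AT4G15690 were 88.3% to 93.2% identical, so reads could be split among them and their values are uncertain. AT3G62930, on chromosome 3, was 64.1% to 66.4% identical to them. AT4G15690 missed the rule in Col after 12 h, where it changed by -0.54, and AT4G15660 in ino80 after 1 h, where it changed by 0.16.

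AT4G15680 had 10.8, 14.7 and 9.84 TPM in ino80 at 27 °C after 1 h, against 6.78, 5.33 and 8.35 TPM in ino80 at 21 °C. The level in Col was 14.8, 20.7 and 18.05 TPM at 27 °C, against 8.15, 8.004 and 7.35 TPM at 21 °C. The Col libraries at 27 °C lay above all others. Its 12 h values were 3.60, 8.58 and 4.91 TPM in ino80 at 27 °C, against 20.4, 19.4 and 12.9 TPM in ino80 at 21 °C. Col had 4.50, 6.03 and 2.99 TPM at 27 °C, against 11.7, 17.1 and 12.8 TPM at 21 °C. The spread between the ino80 libraries was wide, and the genotypes overlapped.

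AT3G62930 averaged 6.28 ± 0.481 TPM (SD, n = 3) in ino80 at 27 °C and 3.18 ± 0.929 TPM in ino80 at 21 °C after 1 h. In Col it averaged 10.9 ± 0.813 TPM at 27 °C and 4.64 ± 0.847 TPM at 21 °C. Its level was higher after 12 h, at 19.3 ± 2.49 TPM in ino80 at 27 °C and 41.9 ± 6.64 TPM in ino80 at 21 °C, with 15.1 ± 1.40 TPM in Col at 27 °C and 29.7 ± 3.84 TPM in Col at 21 °C. At 27 °C after 1 h all 4 genes of the group were lower in ino80, with log2 differences of -0.70 for AT4G15670, -0.57 for AT4G15680, -0.76 for AT4G15700 and -0.70 for AT3G62930 (limma, adjusted p = 0.00147 to 0.00815). AT3G62930 was lower in ino80 at 21 °C after 1 h (-0.45 ± 0.15, limma adjusted p = 0.0267) and higher at 21 °C after 12 h (0.48 ± 0.13, adjusted p = 0.0119). The 1 h call at 21 °C was lost without Col replicate 1 (limma, adjusted p = 0.119) or without ino80 replicate 3, when it was -0.25 (adjusted p = 0.138), and the 12 h call without Col replicate 2, ino80 replicate 2 or ino80 replicate 3 (adjusted p = 0.0541 to 0.0616).

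AT4G15700 had 6.35, 4.68 and 7.47 TPM in ino80 at 27 °C after 1 h, against 2.94, 2.48 and 4.92 TPM in ino80 at 21 °C, and these overlapped. In Col it had 10.96, 9.85 and 12.3 TPM at 27 °C, against 5.73, 4.08 and 5.19 TPM at 21 °C. AT4G15670 was the lowest of the group, at 3.08 ± 0.543 TPM in ino80 at 27 °C and 1.60 ± 0.585 TPM in ino80 at 21 °C after 1 h, and at 5.61 ± 0.460 TPM in Col at 27 °C and 2.27 ± 0.116 TPM in Col at 21 °C.

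CAD9, a cinnamyl alcohol dehydrogenase of the lignin branch, and EC1.4 are adjacent on chromosome 4, point toward each other and end 110 bp apart. CAD9 had 1189, 1262 and 1234 TPM in ino80 at 27 °C after 1 h, against 589.9, 643 and 618 TPM in ino80 at 21 °C. The Col libraries held 1129.7, 1125 and 1244 TPM at 27 °C, against 615, 837 and 726 TPM at 21 °C. It was among the members with the highest TPM at 1 h, with HSP81-2 and FIB. At 12 h the level was 165, 170.2 and 157 TPM in ino80 at 27 °C, against 357, 347 and 309 TPM in ino80 at 21 °C. Col had 256, 212 and 202 TPM at 27 °C, against 407, 476 and 423 TPM at 21 °C. All ino80 libraries after 12 h were below the Col libraries of the same temperature, with log2 differences of -0.37 ± 0.09 at 21 °C (limma, adjusted p = 0.00587) and -0.43 ± 0.09 at 27 °C (adjusted p = 0.00173). At 21 °C after 1 h the call (-0.22 ± 0.08, limma adjusted p = 0.0417) was lost without Col replicate 2, when it was -0.12 (adjusted p = 0.181), and was -0.34 without Col replicate 1. It was also lost without Col replicate 3, ino80 replicate 1 or ino80 replicate 3 (limma, adjusted p = 0.0806 to 0.134). With all libraries kept, it was lost with no filter on low values or with median-of-ratios scaling (limma, adjusted p = 0.0739 and 0.0624).

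EC1.4 belongs to a family of small cysteine-rich proteins that the egg cell secretes at fertilisation. It had 28.4, 30.9 and 21.3 TPM in ino80 at 27 °C after 1 h, against 5.45, 8.93 and 5.65 TPM in ino80 at 21 °C. Col seedlings had 39.6, 35.1 and 28.9 TPM at 27 °C, against 6.41, 8.84 and 10.4 TPM at 21 °C. After 1 h the temperatures were far apart in both genotypes. The values after 12 h were 1.19, 1.92 and 0 TPM in ino80 at 27 °C, against 3.72, 1.77 and 2.42 TPM in ino80 at 21 °C. Col had 2.06, 3.37 and 1.28 TPM at 27 °C, against 2.25, 5.29 and 4.67 TPM at 21 °C. Within each genotype the temperatures overlapped, and its change in Col after 12 h was the only one of the 30 that limma did not call. The 4 floral organ markers together stayed under 4 TPM in the same libraries, and no other egg cell gene was examined. After 1 h EC1.4 and its neighbour CAD9 both rose at 27 °C. The rise was 1.87 in ino80 and 1.91 in Col for EC1.4, and 0.99 and 0.69 for CAD9. The part of reads from beyond the end of CAD9 was not tested.

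AT5G45950, a GDSL-type lipase, had 269.8, 308 and 300.5 TPM in ino80 at 27 °C after 1 h, against 186, 202 and 180.3 TPM in ino80 at 21 °C. Its Col values were 250.5, 216 and 256 TPM at 27 °C, against 143, 169 and 159.6 TPM at 21 °C. The ino80 libraries lay above those of Col at both temperatures. At 12 h it had 25.97, 23.4 and 20.9 TPM in ino80 at 27 °C, against 46.6, 49.1 and 39.7 TPM in ino80 at 21 °C. Col had 41.4, 38.6 and 30.3 TPM at 27 °C, against 68.9, 74.9 and 66.2 TPM at 21 °C. Now the ino80 libraries lay below those of Col. After 1 h the gene was higher in ino80 by 0.27 ± 0.07 at 21 °C (limma, adjusted p = 0.0112, lost without Col replicate 1 at 0.0562) and 0.28 ± 0.07 at 27 °C (adjusted p = 0.00755). After 12 h it was lower, with log2 differences of -0.63 ± 0.11 at 21 °C (limma, adjusted p = 0.000900) and -0.62 ± 0.11 at 27 °C (adjusted p = 0.000852).

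TPPJ, a trehalose-6-phosphate phosphatase, is the other member with a G-box, and its promoter, on the minus strand of chromosome 5 in RefSeq TAIR10.1, is shown for comparison with those of DFR and UF3GT. Capitals mark the G-box (CACGTG), 77 bases before the start, with the overlapping ABRE core (ACGTGG).
TPPJ: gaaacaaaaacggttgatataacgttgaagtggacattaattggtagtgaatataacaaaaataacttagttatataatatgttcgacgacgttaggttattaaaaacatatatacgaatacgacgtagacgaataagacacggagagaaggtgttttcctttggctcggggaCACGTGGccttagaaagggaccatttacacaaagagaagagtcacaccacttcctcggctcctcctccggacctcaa
TPPJ averaged 11.8 ± 0.584 TPM in ino80 at 27 °C, 5.23 ± 0.625 TPM in ino80 at 21 °C, 18.9 ± 1.98 TPM in Col at 27 °C and 7.197 ± 1.09 TPM in Col at 21 °C after 1 h. It was lower in ino80 after 1 h, with log2 differences of -0.39 ± 0.11 at 21 °C (limma, adjusted p = 0.0100) and -0.62 ± 0.11 at 27 °C (adjusted p = 0.000307), and after 12 h every group averaged 1.37 to 3.997 TPM.

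SIB2, a VQ-motif protein that binds plastid sigma factor, averaged 28.1 ± 4.53 TPM in ino80 at 27 °C, 13.6 ± 0.341 TPM in ino80 at 21 °C, 28.4 ± 1.40 TPM in Col at 27 °C and 11.05 ± 1.37 TPM in Col at 21 °C after 1 h. At 27 °C after 12 h it was higher in ino80 (0.40 ± 0.08, limma adjusted p = 0.00209), at 30.8, 36.7 and 34.8 TPM in ino80 against 27.2, 24.9 and 24.5 TPM in Col. Its call at 21 °C after 1 h (0.28 ± 0.10, limma adjusted p = 0.0404) was lost without Col replicate 1 or 3 or any 1 of the 3 ino80 libraries (adjusted p = 0.0721 to 0.145). A pseudocount of 5 or no filter on low values also lost this call (limma, adjusted p = 0.0595 and 0.0623). An opposite-strand gene, AT2G41178, overlaps SIB2 by 920 bp, where the annotated exons of SIB2 cover 835 bp. The deposited values of 1 h and 12 h hold no entry for AT2G41178. What its reads add to the values of SIB2 was not tested.

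AT1G73600, annotated as an S-adenosylmethionine-dependent methyltransferase, averaged 66.2 ± 4.104 TPM in ino80 at 27 °C, 25.7 ± 2.61 TPM in ino80 at 21 °C, 80.0 ± 9.96 TPM in Col at 27 °C and 38.8 ± 4.99 TPM in Col at 21 °C after 1 h. It was lower in ino80 at 21 °C after 1 h (-0.57 ± 0.10, limma adjusted p = 0.000337). The call at 27 °C (-0.26 ± 0.10, limma adjusted p = 0.0484) was lost without Col replicate 2 or 3 or without ino80 replicate 1 or 2 (adjusted p = 0.114 to 0.212). No filter on low values or median-of-ratios scaling also lost this call (limma, adjusted p = 0.0771 and 0.0574). After 12 h it averaged 7.56 ± 0.342 TPM in ino80 at 27 °C, 22.3 ± 2.18 TPM in ino80 at 21 °C, 6.18 ± 0.964 TPM in Col at 27 °C and 18.8 ± 0.785 TPM in Col at 21 °C. AT3G26960, of the pollen Ole e 1 and extensin family, was higher in ino80 at 21 °C after 1 h (0.78 ± 0.12, limma adjusted p = 0.000126), at 14.7, 10.6 and 11.6 TPM in ino80 against 5.60, 6.64 and 8.06 TPM in Col. AT3G53650, a histone-fold gene, was lower in ino80 at 27 °C after 1 h (-0.58 ± 0.14, limma adjusted p = 0.00426), at 5.71, 4.82 and 5.11 TPM in ino80 against 9.44, 7.35 and 8.10 TPM in Col. Its call at 21 °C after 1 h (-0.42 ± 0.14, limma adjusted p = 0.0274) was lost without Col replicate 1 or 2 or without ino80 replicate 1 or 2 (adjusted p = 0.0551 to 0.120).

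AT2G38010, a neutral ceramidase that cleaves sphingolipids, and AT5G41460, a putative glycosyltransferase, were higher in ino80 at 21 °C after 1 h, by 0.41 ± 0.09 (limma, adjusted p = 0.00277) and 0.37 ± 0.08 (adjusted p = 0.00183). AT2G38010 averaged 14.6 ± 1.76 TPM in ino80 and 10.6 ± 0.563 TPM in Col there, and AT5G41460 averaged 14.8 ± 0.592 TPM in ino80 and 11.2 ± 1.34 TPM in Col. MLP423, of the major latex protein family, and AT5G61290, a flavin-binding monooxygenase, showed no called genotype difference. MLP423 averaged 73.3 ± 2.18 TPM in ino80 at 27 °C, 43.0 ± 2.85 TPM in ino80 at 21 °C, 65.8 ± 6.82 TPM in Col at 27 °C and 42.2 ± 3.74 TPM in Col at 21 °C after 1 h. After 12 h it averaged 38.6 ± 5.86 TPM in ino80 at 27 °C, 106 ± 16.8 TPM in ino80 at 21 °C, 39.1 ± 10.5 TPM in Col at 27 °C and 76.6 ± 3.02 TPM in Col at 21 °C. AT5G61290 stayed between 3.851 and 13.6 TPM in all 24 libraries. The ranges that follow cover 12 members, MYB29, AT3G62930, AT4G15670, TPPJ, SIB2, AT1G73600, AT3G26960, AT3G53650, AT2G38010, AT5G41460, MLP423 and AT5G61290. Their log2 difference between 27 °C and 21 °C after 1 h ranged from 0.61 (AT3G53650) up to 1.34 (AT1G73600) in ino80. In Col it ranged from 0.63 (MLP423) up to 1.34 (AT3G26960). The 12 h difference ranged from -1.44 (AT1G73600) up to -0.65 (AT5G41460) in ino80 and from -1.47 (AT1G73600) up to -0.77 (AT3G26960) in Col. Neighbouring genes overlap AR192 by 105 bp, AT5G61290 by 112 bp, AT3G26960 by 106 bp and AT2G38010 by 24 bp, so some of their reads could belong to those neighbours.

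The genotype comparison of the set as a whole split it in both directions. At 21 °C after 1 h, 13 of the 30 genes were higher in ino80, where limma called 15.4% of all tested genes higher, and 7 were lower (20.5%). At 27 °C after 1 h, 9 were higher (17.1%) and 11 lower (20.4%). At 21 °C after 12 h, 8 were higher (16.7%) and 3 lower (12.1%), and at 27 °C after 12 h, 9 were higher (18.7%) and 2 lower (11.5%). The median difference of the 30 was 0.03 and -0.05 at 21 °C and 27 °C after 1 h and 0.05 and 0.22 after 12 h, beside -0.03, -0.01, 0.03 and 0.05 over all tested genes. Across the 4 comparisons 13 genes were called higher and never lower, 11 lower and never higher, 2 both ways and 4 not at all. The 6 that were higher in all 4 were GA3OX1, AT3G28270 and the 4 anthocyanin genes, and no gene was lower in all 4. The 2 called both ways were AT3G62930 and AT5G45950, and the 4 never called were AR192, EC1.4, AT5G61290 and MLP423. These counts across the 4 comparisons were not made over all tested genes, so nothing is read from them.

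**Figure D5:**
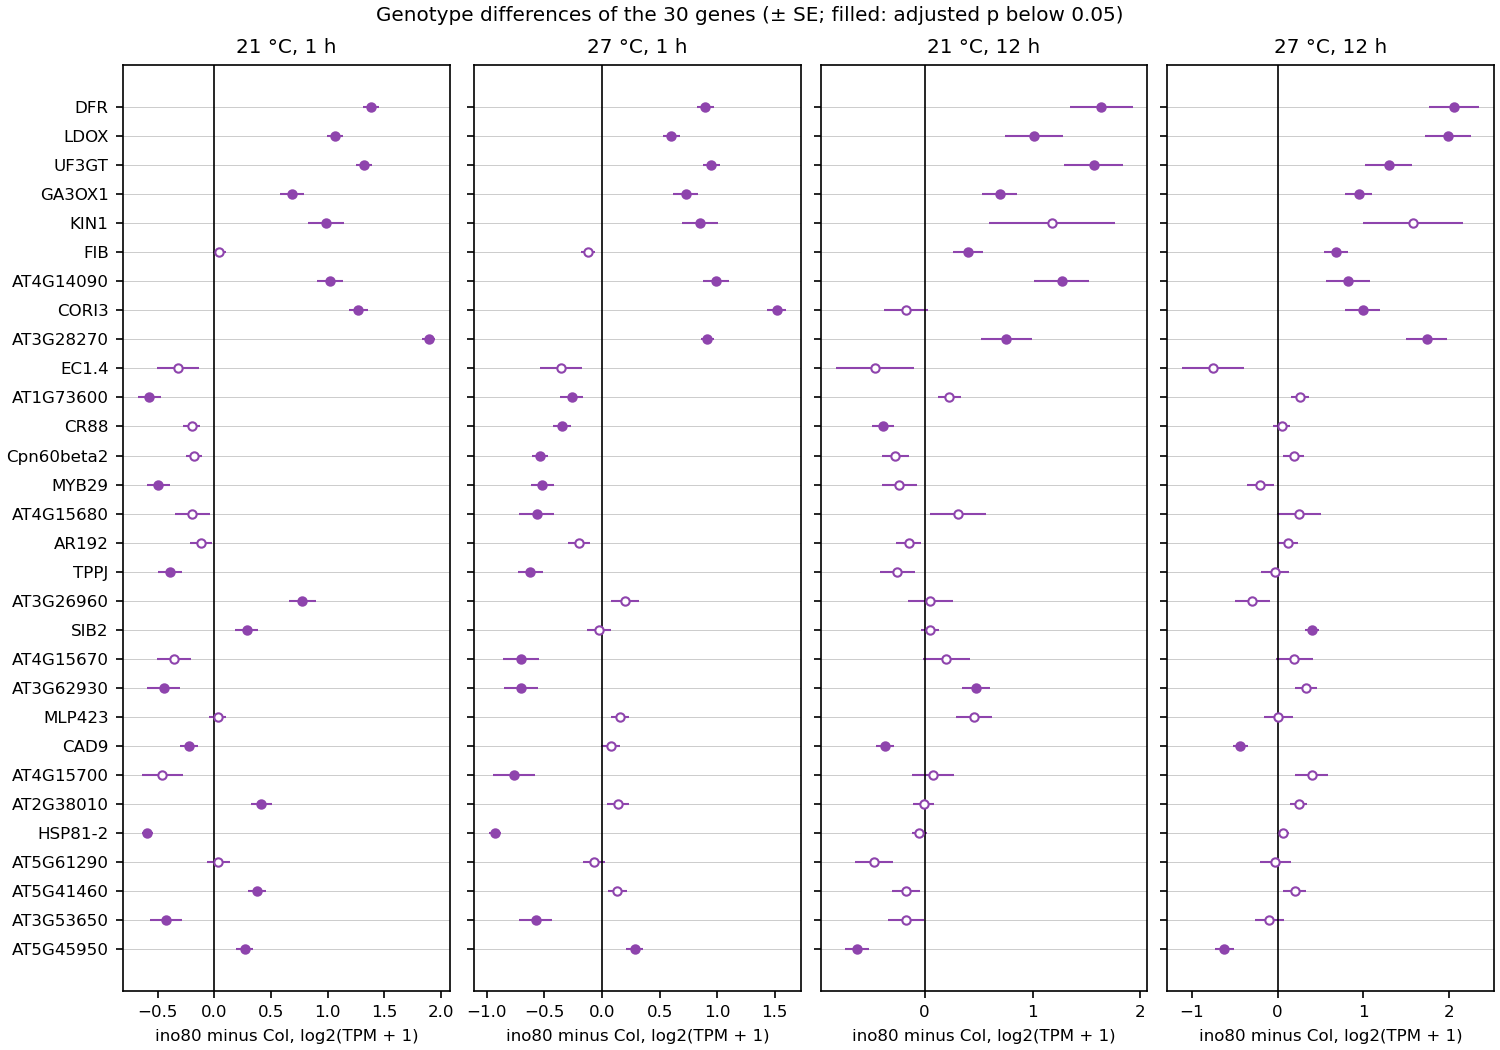
Difference between ino80 and Col in log2(TPM + 1) with its SE (bars) for each of the 30 genes at each temperature and time, where filled points have a limma adjusted p below 0.05. The 3 genes at the top, DFR, LDOX and UF3GT, lie to the right of 0 in all 4 panels, and HSP81-2 reaches -0.93 at 27 °C after 1 h but lies near 0 after 12 h.

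The size of the temperature differences differed between genotypes in a way that is given as a description, since the rule bounded both. After 1 h the difference was smaller in ino80 than in Col for 24 of the 30 genes, and after 12 h for 21. The interaction, which is made of values the rule used, was called for 4 genes after 1 h, LDOX (-0.47 ± 0.10), DFR (-0.48 ± 0.10), AT3G28270 (-0.98 ± 0.08) and HSP81-2 (-0.34 ± 0.07), where 0.792% of all tested genes were called lower and 1.09% higher. After 12 h limma called 0 of the 30, where it called 0.751% of all tested genes in either direction. An unadjusted limma p under 0.05 was reached by 2 higher and 8 lower genes after 1 h. After 12 h it was reached by 6 higher and 0 lower genes. Shares of all genes with a smaller difference in ino80, or with such an unadjusted p, were not counted. Nothing is read from any of these counts. The calls of LDOX, DFR and HSP81-2 were each lost without some single libraries, with adjusted p of up to 0.0788. A pseudocount of 5 also lost those of LDOX and DFR (limma, adjusted p = 0.05002 and 0.0628). With no filter on low values that of LDOX was lost (limma, adjusted p = 0.0513).

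Features of position and sequence are given as counts beside those over all genes, with no test, and none of them was common to most of the 30. Chromosome 4 held 10 of them (33.3%), beside 15.3% of the nuclear genes in both tables, and among these 10 were the 3 clustered thioredoxin-superfamily genes and the CAD9 and EC1.4 pair. A single exon was annotated for 10 (33.3%), beside 17.3% of those genes, and the median exonic length was 1521 bp, beside 1710 bp. In windows from 250 bases before to 50 after the start, searched on both strands, site II (TGGGCC) was found in 8 of the 30 (26.7%), beside 17.3% of all 22690 windows. The CRT/DRE core (CCGAC) was found in 8 (26.7%, beside 15.65%), the ABRE core (ACGTGG), which overlaps a G-box where both occur together, in 6 of 30 (beside 10.8%) and the G-box (CACGTG) in 3 of 30 (beside 8.59%). The G-box genes were DFR, UF3GT and TPPJ. The W-box (TTGACC) was found in 3 of 30 (beside 14.4%) and the heat shock element (GAANNTTC) in 2, FIB and Cpn60beta2 (6.67%, beside 11.4%). The evening element (AAAATATCT), the PBE-box (CACATG) and the CCA1-binding site (AAAAATCT) were found in 1 gene each, beside 2.95%, 13.1% and 7.90% of all windows. The telo-box (AAACCCTA), the GCC-box (GCCGCC) and a MYB site (ACCTACC) were found in none of the 30, beside 5.58%, 2.53% and 1.42%.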

How the data were processed

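The 2 deposited tables hold TPM values that the authors computed before deposit, 1 table per time with 12 libraries each, of 23390 genes at 1 h and 23282 at 12 h. TAIR10 and the tools DESeq2 1.26.0, HTSeq 0.11.2, HISAT2 2.1.10 and fastp 0.20.1 appear in the submitters' processing notes, without role. Gene lengths and strand use are not given in the sources used here. The header has a name fewer than the columns, so each name was given to the value column in the same place. The labels give groups and replicate numbers.

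TPM are not counts, so limma 3.58.1 in R 4.3.3 was fitted to log2(TPM + 1) with a mean for each of the 4 groups of a table and a trended prior. The fit at 1 h took 19190 genes and that at 12 h 19578, those that reached 1 TPM in 3 or more libraries. Tests were two-sided with Benjamini-Hochberg adjustment across these genes, and a call means adjusted p under 0.05. The fit was checked on simulated data. The pseudocount draws changes of low genes toward 0. Changes in the text are log2 differences, given ± SE, and TPM means are given ± SD with n = 3.

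The members, the 13 gene lists (294 genes) and the tests were chosen with earlier results of these data known. Members named are the 20 with the largest mean change and a TPM of at least 5 in some group, members of a list, up to 6 called genes per direction and comparison and those at the threshold. The remaining members, and genes named outside this rule, were chosen after their values were seen. Symbols, products, gene order and sequences come from RefSeq TAIR10.1, in which all 30 members were found, and coordinates are not given because the labels name TAIR10. Motif searches and sequence comparisons used Python 3.11.15 with Biopython 1.88. Alternatives were another pseudocount, threshold, scaling and filter, a replicate block and leaving out each library.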

Additional observations from a re-analysis of the deposited data

Results flagged for a closer look

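For 6 genes all 3 ino80 libraries lay on one side of the 3 Col libraries after 1 h and on the other side after 12 h, and the difference between the times was not tested, since the tables were fitted alone. The share of all genes with such a switch was not counted, so nothing is read from the number of genes. FIB at 27 °C was -0.12 in ino80 minus Col after 1 h and 0.68 after 12 h. AT1G73600 at 21 °C was -0.57 and 0.23, and Cpn60beta2 at 27 °C was -0.54 and 0.19. AT3G62930 was -0.45 and 0.48 at 21 °C and -0.70 and 0.33 at 27 °C, and AT4G15700 at 27 °C was -0.76 and 0.40. AT5G45950 took the opposite order, with 0.27 and -0.63 at 21 °C and 0.28 and -0.62 at 27 °C. Among these pairs the limma fit called a difference at both times for AT3G62930 at 21 °C and for AT5G45950 at both temperatures. In the others 1 of the 2 values was not called: the 1 h value of FIB, and the 12 h values of AT1G73600, Cpn60beta2, AT4G15700 and, at 27 °C, AT3G62930.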

How the results depend on the processing

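The rule found 30 genes as given, 50 at a threshold of 0.5, 13 at a threshold of 0.8, 17 with a pseudocount of 5, 35 with a pseudocount of 0.5 and 43 with median-of-ratios scaling, and 28 to 34 without 1 library. Of 62 genotype calls among 120 comparisons of a member, 49 were kept under every alternative and 13 lost under at least 1, with 0 changes of sign. A pseudocount of 5 lost 3 calls (SIB2 at 21 °C after 1 h, UF3GT and AT4G14090 at 27 °C after 12 h), no filter lost 4, median-of-ratios scaling lost 3 and leaving out 1 library lost 12. Leaving out 1 library gave 11 to 13 higher and 5 to 10 lower members at 21 °C after 1 h, 9 and 10 to 11 at 27 °C after 1 h, 5 to 7 and 2 to 5 at 21 °C after 12 h, and 8 to 12 and 2 to 3 at 27 °C after 12 h. The counts at 21 °C after 12 h were 5 higher without Col replicate 1 or ino80 replicate 1, and 5 lower without ino80 replicate 1. The temperature calls were 30 at 1 h, and at 12 h 29 in Col and 29 to 30 in ino80. The interaction at 1 h gave 2 lower and 1 higher with a pseudocount of 5, and 1 to 6 lower and 0 to 1 higher without 1 library. It gave 1 lower without Col 21 °C replicate 3, Col 27 °C replicate 2 or ino80 27 °C replicate 2, and 2 lower without Col 27 °C replicate 1, ino80 21 °C replicate 1 or 3, or ino80 27 °C replicate 1. Median-of-ratios scaling moved the median of all genes at 27 °C against 21 °C after 12 h by -0.14 in ino80 and -0.11 in Col, and the calls over all genes were 5217 higher and 5445 lower in ino80 and 5555 and 5598 in Col, beside 7458 and 3783 in ino80 and 7201 and 4274 in Col as deposited. For ino80 against Col after 12 h it gave 2704 higher and 3238 lower at 27 °C and 2813 and 3030 at 21 °C, beside 3660 and 2256 at 27 °C and 3273 and 2366 at 21 °C.

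Same-numbered replicates did not deviate together, with correlations from -0.05 up to 0.12 (1 h) and from -0.29 up to 0.20 (12 h), so the numbers were not taken as pairs. A replicate block lost 0 of the 62 genotype calls and gained 5, and gave 1 higher interaction at 12 h in place of 0. Transcripts under about 1 TPM, such as UF3GT and LDOX in Col at 27 °C after 12 h, rest on few fragments, and depth is known only as an estimate.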

Other observations

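Among the 30 genes, replicate 2 of ino80 at 27 °C after 12 h was the highest of its 3 libraries for 20, and replicate 3 of Col at 27 °C after 12 h was the highest of its 3 for 1. Other groups were also uneven. In ino80 at 21 °C after 12 h, replicate 1 was the highest for 19 genes and replicate 3 for 2. In ino80 at 21 °C after 1 h, replicate 2 was the highest for 18. The same counts over all genes were not made, so nothing is read from them about the 30 genes.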
